A study of Bos taurus with 9 samples.

Results

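The early response of bovine mammary epithelial cells to LPS was read as the difference between cells at 6 h post-infection (hpi) with LPS and untreated cells (0 h). The members are the 3 libraries titled 6 hpi and the 3 titled 0 h, 6 of the 9 libraries of the series. The cells were MAC-T, an immortalized line of bovine mammary epithelium, grown in DMEM/F12 with fetal bovine serum to near confluence. The 6 hpi cells had received 50 ng/μL LPS for 6 h, the 0 h cells had received none, and the remaining 3 libraries came from cells given the same dose for 12 h. Cells of a time point came from a single plate and no untreated plate collected at 6 h is described, so LPS, plate and hours in culture cannot be told apart. The labels call the 3 libraries of a time point biological replicates. The sources used here do not say whether they were wells of that plate, so the errors and p-values below measure the spread between these libraries.

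LPS, a glycolipid of the outer membrane of Gram-negative bacteria such as Escherichia coli, is sensed at the cell surface. Mammary epithelial cells do so through TLR4, which signals through NF-κB and the MAP kinases to genes of cytokines and chemokines, and through interferon regulatory factors to antiviral genes. Long non-coding RNAs (lncRNAs) are transcripts without coding potential. Some act on the gene they overlap or on its neighbours. Circular RNAs (circRNAs) are closed loops that form when a downstream splice site joins an upstream one, and they are counted from the reads that cross this junction.

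The deposited lncRNA values are FPKM (fragments per kilobase of transcript, scaled to mapped fragments) of 2257 transcripts from 1832 genes, and the circRNA values are TPM of 3763 circRNAs. Sense overlapping lncRNAs carry the name of their host gene with OT and a number, antisense ones the identifier of the gene on the other strand with AS, and intergenic ones a LINC number. Coordinates are those of the files, on ARS-UCD1.2. Messenger RNAs are not among the values used here, so the epithelial identity of the cells could not be read from keratins or caseins. Of the markers of mammary epithelium listed for this purpose, only RUNX1 was itself a host of tested lncRNAs (5 transcripts), and 0 tested lncRNAs had a host among the markers of fibroblasts or of leukocytes.

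The 0 h libraries were uneven. On log2(FPKM + 0.1) of the tested lncRNAs, 0 h replicate 3 had Pearson correlations of 0.709 to 0.718 with the 3 libraries of 6 hpi and of 0.67 and 0.69 with replicates 2 and 1 of its own group. For those replicates the correlations with 6 hpi were 0.58 to 0.637, and within 6 hpi they were 0.648 to 0.682. The points are lncRNAs, not replicates. In the study's sequencing summary, 0 h replicates 1 and 2 had lower mapped ratios and lower shares of high-quality bases (Q30) than any other library. Replicates 1 and 2 of 0 h also held the fewest circRNA reads (3079 and 2305) and replicate 3 the most (15314), against 6162, 8123 and 8787 at 6 hpi. In 0 h replicate 2, the annotated lncRNA ENSBTAT00000069275 alone was listed at 16334 FPKM (79.9% of the summed lncRNA FPKM), while the median lncRNA of that library was at 0.683 FPKM, within the range of the 6 libraries (0.66 to 0.743). The comparison was therefore also made without 0 h replicates 1 and 2, and calls lost there are named with each lncRNA. It then rests on 1 library at 0 h, replicate 3, the one nearest to 6 hpi by correlation. Smaller differences and lost calls can follow from that alone. A call lost there does not show that the difference is absent.

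At 6 hpi, 118 lncRNAs met the thresholds used in the study, a log2 fold change beyond 1 in either direction with p under 0.05 before adjustment, here from limma on log2(FPKM + 0.1). They are 6.06% of the 1948 lncRNAs tested, those above 0.5 FPKM in at least 3 of the 9 libraries, a filter that 1 time point alone can meet. Such lncRNAs are called higher or lower in the following. Called higher were 73 (3.75%), with a median log2 fold change of 1.66, and called lower were 45 (2.31%), with a median of −1.64. In 91 of the 118 the 3 values of one time point did not overlap the 3 of the other, as was the case for 323 of all tested lncRNAs (16.6%). The median log2 fold change over all tested lncRNAs was 0.05. No lncRNA passed a Benjamini-Hochberg adjusted p under 0.05 (0 of 1948, 0%) although 191 had an unadjusted p under 0.05 in limma. The adjusted p of the 118 called lncRNAs ran from 0.11 to 0.509. Fold changes are on the log2(FPKM + 0.1) scale, which understates those of scarce transcripts. With each library centred on its median, the 118 calls (73 higher, 45 lower) became 115 (61 higher, 54 lower), and with quantile normalization they became 110 (59 and 51).

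Most called lncRNAs were scarce. Over the 6 libraries their mean FPKM had a median of 0.662, 81 of the 118 lay under 1 FPKM and 2 above 10 FPKM. Among the 59 tested lncRNAs with a mean above 10 FPKM over the 9 libraries, 3 were called higher and 0 lower (5.08%), among the 663 between 1 and 10 FPKM 5.73% were called, and among the 1226 under 1 FPKM 6.28%. By type, 27 intergenic lncRNAs were called higher and 9 lower of 521 tested (6.91%), and their median log2 fold change was 0.17. Antisense lncRNAs were split into 19 higher and 17 lower of 531 (6.78%, median 0.02), sense overlapping ones into 19 and 17 of 712 (5.06%, median −0.0043), and annotated ones into 8 and 2 of 184 (5.43%, median −0.02).

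**Figure D1:**
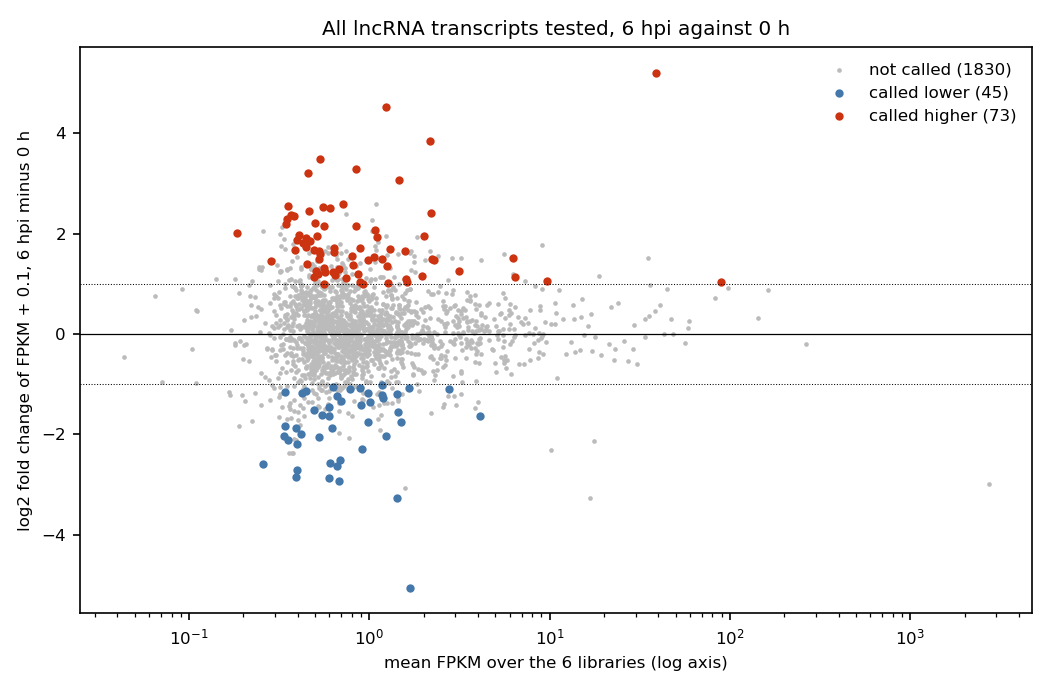
Log2 fold change of FPKM + 0.1 between 6 hpi and 0 h (vertical axis) against the mean FPKM over the 6 libraries (horizontal log axis) for each of the 1948 lncRNAs tested. The 73 called higher (red) and 45 called lower (blue) lie mostly under 1 FPKM, and dotted lines mark a log2 fold change of 1 in either direction.

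The lncRNA with the smallest p was lower at 6 hpi. ENSBTAT00000083638, an annotated lncRNA from 7675 to 8744 on scaffold NKLS02001549.1, which is not placed on a chromosome, was at 5.77, 6.83 and 6.24 FPKM in the 0 h libraries and at 2.30, 1.57 and 2.02 FPKM at 6 hpi. The highest value of 6 hpi (2.30) lay well under the lowest of 0 h (5.77). The log2 fold change was −1.64 (standard error 0.23, adjusted p = 0.11 in limma). At 12 hpi it was at 2.20, 2.00 and 2.90 FPKM. It is the only transcript of its gene, and in the fit on FPKM summed per gene the same difference had an adjusted p of 0.0406, the 1 gene of 1619 under 0.05 (0.0618%), while 181 genes had an unadjusted p under 0.05. That adjusted p lay between 0.0228 and 0.293 over the 15 alternatives and was above 0.05 when either of 0 h replicates 1 and 2 (0.182 and 0.293) or any library of 6 hpi (0.0834 to 0.261) or 12 hpi (0.052 to 0.0973) was left out.

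Other lncRNAs that were lower at 6 hpi were the only transcript of their gene. ENSBTAG00000006948-AS1, antisense on chromosome 11 (97980785 to 98027711), was at 1.77, 2.15 and 1.93 FPKM at 0 h and at 0.126, 0.387 and 1.03 at 6 hpi, which gave −2.04 as log2 fold change (standard error 0.52, adjusted p = 0.337). ENSBTAG00000002033-AS1, also antisense on chromosome 11 (75080409 to 75081436), was at 0.767, 0.707 and 0.794 FPKM at 0 h, at 0.0705 in 6 hpi replicate 1 and listed at 0 in the other two. Its 12 hpi values of 0.35, 0.152 and 0.437 FPKM lay between those of 0 h and 6 hpi. It was above 0.5 FPKM at 0 h alone, so it met the filter only through that group. ENSBTAG00000051068-OT2 (chromosome 11, 682549 to 699726) was at 0.887, 0.955 and 0.433 FPKM against 0, 0.0994 and 0 (log2 fold change −2.71). That call was lost with a pseudocount of 1 and without 0 h replicates 1 and 2 (−2.08). ENSBTAG00000001283-AS1, antisense on chromosome 8 (39054056 to 39091442), was at 1.82, 2.42 and 2.20 FPKM at 0 h and at 1.04, 0.766 and 0.347 at 6 hpi. LINC74, intergenic on chromosome 1 (89611492 to 89799594), was at 1.44, 1.81 and 0.855 FPKM against 0.355, 0.464 and 0.476. In all of these the groups were apart, which was a condition of their selection. The log2 fold changes of the last 2 were −1.55 and −1.42. The call of LINC74 was lost with pseudocounts of 0.5 and 1 and without 0 h replicates 1 and 2 (−0.85).

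TYK2-OT1 (chromosome 7, 14904766 to 14905841) overlaps the gene of TYK2, a Janus kinase that signals from the receptors of type I interferons and of interleukins of the IL-12 family. Its 0 h libraries were nearly alike at 0.983, 0.965 and 0.876 FPKM, and its 6 hpi libraries were at 0.167, 0.387 and 0.19. The log2 fold change was −1.63 (standard error 0.40, adjusted p = 0.323 in limma), and at 12 hpi the values were 0.255, 0.39 and 0.625 FPKM, still under the 0 h range. The call was lost with pseudocounts of 0.5 and 1 and without 0 h replicates 1 and 2 (log2 fold change −1.54). ICAM1, an adhesion molecule that binds leukocyte integrins, is annotated within 100 kb of TYK2.

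KHSRP-OT1 was lower as well. KHSRP binds AU-rich elements of messenger RNAs, among them those of cytokines, and promotes their decay, and its sense overlapping lncRNA (chromosome 7, 18035388 to 18041335) was at 0.968, 1.76 and 0.974 FPKM at 0 h and at 0.733, 0.296 and 0.583 at 6 hpi (log2 fold change −1.08, adjusted p = 0.474). At 12 hpi it lay within the 0 h range (0.979, 1.36 and 1.05 FPKM). The call was lost with pseudocounts of 0.5 and 1, without 0 h replicate 2, without 6 hpi replicate 2 and without 0 h replicates 1 and 2 (−0.82).

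Of the lncRNAs that were higher and alone in their gene, ENSBTAT00000080391, annotated on chromosome 17 (44006655 to 44008029), was at 0.0187, 0 and 0.0629 FPKM at 0 h and at 0.455, 1.08 and 0.499 at 6 hpi. The 2 groups were far apart on this scale (log2 fold change 2.55, standard error 0.51, adjusted p = 0.273), and at 12 hpi it was at 0.909, 0.55 and 1.45 FPKM. TMEM168-OT1 (chromosome 4, 55560579 to 55563382), which overlaps the gene of a transmembrane protein, was at 0.0563, 0.0708 and 0.14 FPKM against 0.563, 2.08 and 0.709 (log2 fold change 2.50). The antisense lncRNA of RERE (ENSBTAG00000018272-AS1, chromosome 16, 44771790 to 44775527), a transcriptional coregulator of nuclear receptors, was at 0.191, 0.167 and 0.275 FPKM against 0.877, 0.638 and 1.03 (log2 fold change 1.60, standard error 0.36). LINC214 (chromosome 11, 105188230 to 105192557) was at 1.04, 0.755 and 1.31 FPKM against 2.03, 1.97 and 2.6, a log2 fold change of 1.04. Its call was lost under 7 of 21 alternatives, with centred or quantile normalized values, with pseudocounts of 0.5 and 1, and without 0 h replicate 2, 6 hpi replicate 3 or 0 h replicates 1 and 2 (0.70). Of the alternatives run, only the pseudocounts of 0.5 or 1 removed the calls of the first 3.

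RNF5-OT3 and ENSBTAT00000083033 were also higher. RNF5 encodes a ubiquitin ligase of the endoplasmic reticulum membrane that in human cells marks the adaptors of antiviral signalling STING and MAVS, and NOTCH4 lies within 100 kb of it. RNF5-OT3 (chromosome 23, 27209390 to 27212136) was listed at 0, 0 and 0.014 FPKM at 0 h and at 1.40, 0.724 and 0.623 at 6 hpi, and at 0.102, 0.102 and 0.224 at 12 hpi (log2 fold change at 6 hpi 3.2, adjusted p = 0.286). Summed over both lncRNAs of the gene, the 6 hpi values were 1.40, 3.02 and 0.623 FPKM, with RNF5-OT1 read in 6 hpi replicate 2 alone. The log2 fold change of the sum was 3.84 (standard error 0.71, adjusted p = 0.241 in limma), the smallest p among the genes called higher. RNF5-OT3 and this sum were above 0.5 FPKM at 6 hpi alone, so they met the filter only through the group where they are high. ENSBTAT00000083033, annotated on the scaffold NKLS02002005.1 (67957 to 69416), was at 0.158, 0.356 and 0.206 FPKM at 0 h and at 225, 1.39 and 5.23 at 6 hpi, so its mean at 6 hpi was set by 1 library, and its call was lost without 0 h replicates 1 and 2 (log2 fold change 5.31). ENSBTAT00000069275, with its 16334 FPKM in 0 h replicate 2, lies on the same scaffold.

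**Figure D2:**
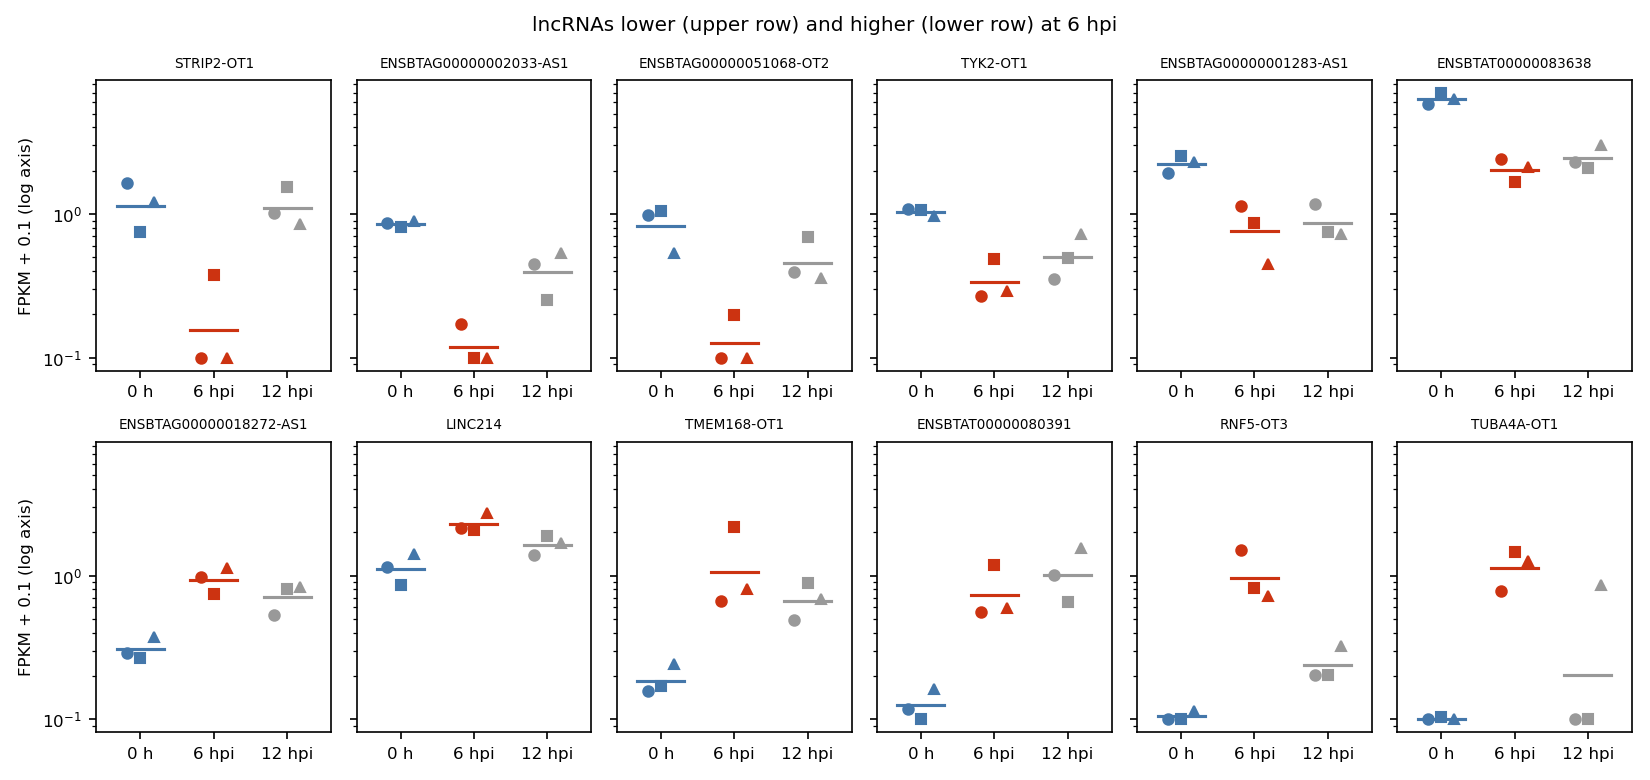
FPKM + 0.1 (log axis) in each library for 6 lncRNAs called lower and 6 called higher at 6 hpi, with circles, squares and triangles for replicates 1, 2 and 3 and a line at the geometric mean of each time point. The 0 h (blue) and 6 hpi (red) values do not overlap in any panel. Lack of overlap was itself a criterion by which all of them but TUBA4A-OT1 were picked. The 12 hpi values (grey) of STRIP2-OT1 and TUBA4A-OT1 reach the range of 0 h in all 3 libraries and in 2 of 3.

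Where a gene had several lncRNA transcripts, a call for 1 of them was mostly not a call for the gene. Of the 118 called lncRNAs, 72 were the only transcript of their gene (5.45% of 1322 tested) and 46 belonged to 42 genes with more than 1 (7.35% of 626 tested). Of those 46, the FPKM summed over the gene was called in the same direction for 6 and was not called for 40, of which 9 had a sum that leaned to the opposite side. Overlapping transcripts of a gene share reads that the quantification divides among them. The part of this division in the opposite calls was not tested.

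At 4 genes 1 transcript was called higher and another lower. LINC177 and LINC178 lie on chromosome 11 (8996988 to 8999441 and 8997008 to 8999441), with starts 20 bases apart and the same end. LINC177 was at 0.956, 0.767 and 0.278 FPKM at 0 h and at 2.61, 3.66 and 4.92 at 6 hpi, and LINC178 was at 2.54, 2.64 and 4.93 FPKM at 0 h and listed at 0 in all 3 libraries of 6 hpi. Their sum was 3.50, 3.40 and 5.21 FPKM at 0 h and 2.61, 3.66 and 4.92 at 6 hpi, with overlapping ranges (log2 fold change −0.13, adjusted p = 0.883). At 12 hpi LINC178 was at 2.61 and 4.58 FPKM in replicates 1 and 2 and listed at 0 in replicate 3, while LINC177 stayed at 3.64 to 6.72 FPKM.

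RUNX1, a transcription factor of blood formation that is also expressed in mammary epithelium, hosts 5 tested lncRNAs that end at 147244722 or 147244730 on chromosome 1. RUNX1-OT2 (147184463 to 147244722) was at 1.40, 1.5 and 0.336 FPKM at 0 h, listed at 0 in 6 hpi replicates 1 and 2 and at 0.393 in replicate 3. RUNX1-OT3 (147184463 to 147244730) was at 0.046, 0 and 1.57 FPKM at 0 h and at 3.14, 2.06 and 1.94 at 6 hpi. In both, 0 h replicate 3 lay next to or among the 6 hpi values. The log2 fold changes were −2.58 (standard error 0.72) and 3.06 (standard error 0.95), adjusted p = 0.337 and 0.405 in limma. Without 0 h replicates 1 and 2 both calls were lost, with RUNX1-OT2 at −1.36 and RUNX1-OT3 at 0.54. At 12 hpi RUNX1-OT3 was listed at 0, 0 and 0.0405 FPKM and RUNX1-OT2 at 1.71, 3.27 and 2.07. Summed over the 5 transcripts, RUNX1 lncRNAs were at 5.50, 5.67 and 5.35 FPKM at 0 h and at 8.84, 5.63 and 5.45 at 6 hpi (log2 fold change 0.23, adjusted p = 0.766).

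The other 2 such genes had smaller differences. At XLOC_071221 on chromosome 5, LINC1289 (54950079 to 54952124) was at 1.76, 2.01 and 1.44 FPKM at 0 h and at 0.577, 0.735 and 0.662 at 6 hpi, with no overlap, while LINC1279 (54939138 to 54966759) was at 0.326, 0 and 1.36 FPKM against 1.22, 1.73 and 1.80. Their log2 fold changes were −1.27 and 2.07, and that of the 4 transcripts together was 0.10. The call of LINC1279 was lost under 7 of 21 alternatives, among them without 0 h replicate 1, 0 h replicate 2, 6 hpi replicate 2 or 6 hpi replicate 3, and both calls were lost without 0 h replicates 1 and 2 (LINC1279 0.19, LINC1289 −1.03). At ENSBTAG00000055209 on chromosome 28, OT1 (29067527 to 29167541) was at 0.392, 0.887 and 0.637 FPKM against 0.0867, 0.256 and 0.407, and OT2 (29067671 to 29167541) at 0.465, 0.0954 and 0.269 against 0.783, 0.837 and 0.579. Their sum lay between 0.857 and 1.09 FPKM in all 6 libraries. OT2 was above 0.5 FPKM at 6 hpi alone and met the filter only through that group. Both calls were lost without 0 h replicates 1 and 2 and without 0 h replicate 2, 0 h replicate 3, 6 hpi replicate 1 or 6 hpi replicate 2, with log2 fold changes of −1.19 for OT1 and 1.16 for OT2 in the first of these.

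The same was seen where only 1 of the transcripts was called. ENSBTAG00000048455-OT1 (chromosome 26, 39948379 to 39986252) was at 1.18, 1.00 and 1.18 FPKM at 0 h and at 3.76, 3.59 and 2.71 at 6 hpi, with little spread within a group (log2 fold change 1.49, standard error 0.27, adjusted p = 0.239). The transcripts OT3 and OT4 of this gene held 3.06 (OT4), 3.82 (OT3) and 2.79 FPKM (OT4) in the 0 h libraries and no more than 0.539 FPKM each at 6 hpi, and the sum of all 3 was 4.26, 4.82 and 4.05 FPKM against 3.87, 4.58 and 3.66 (log2 fold change −0.12). PILRA, an inhibitory receptor of myeloid cells, hosts PILRA-OT1 (chromosome 25, 36114318 to 36138178), which was at 1.28, 0.835 and 1.48 FPKM against 0.395, 0 and 0.124 (log2 fold change −2.51, standard error 0.60). PILRA-OT3, whose end lies 20 bases further, was at 0.782, 0.752 and 1.01 FPKM against 0.858, 2.43 and 2.27, and the sum had a log2 fold change of −0.05. STRIP2-OT1 (chromosome 4, 93394550 to 93401414), at a gene of the STRIPAK phosphatase and kinase complex, was at 1.54, 0.645 and 1.11 FPKM against 0, 0.277 and 0 and at 0.915, 1.44 and 0.75 at 12 hpi. STRIP2-OT2 was at 0.223, 0.694 and 0.515 FPKM against 1.52, 0.353 and 1.00, and the sum had a log2 fold change of −0.61 (adjusted p = 0.49).

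**Figure D3:**
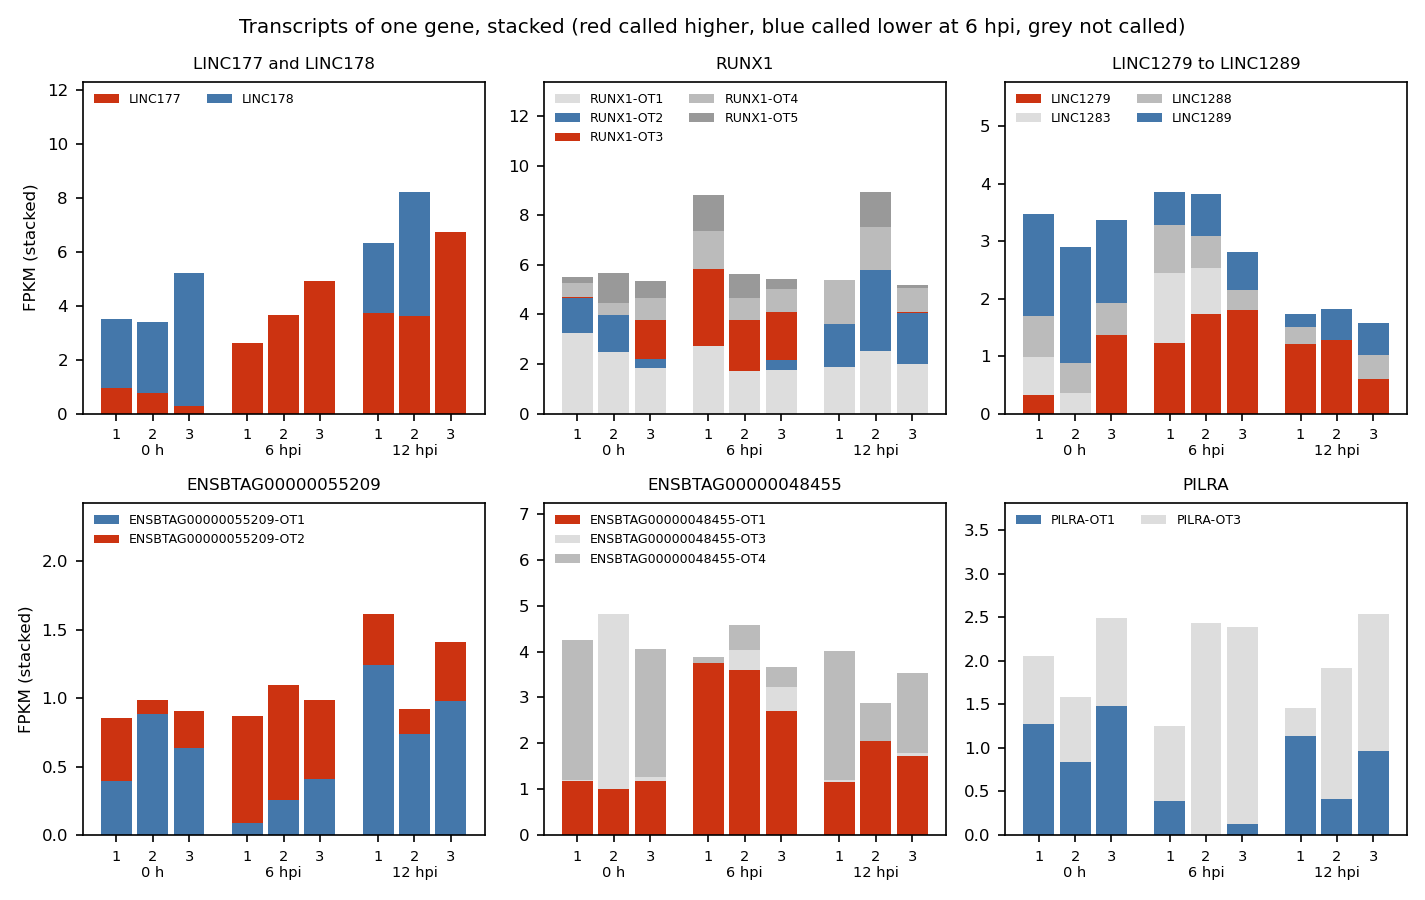
FPKM of the lncRNA transcripts of 6 genes, stacked in each of the 9 libraries, with transcripts called higher at 6 hpi in red, called lower in blue and not called in grey. The composition of the bars differs between 0 h and 6 hpi while their heights overlap, as for LINC177 and LINC178, whose sum is 3.40 to 5.21 FPKM at 0 h and 2.61 to 4.92 FPKM at 6 hpi.

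At TUBA4A the sum was called with the transcript. TUBA4A, an α-tubulin, hosts TUBA4A-OT1 (chromosome 2, 107194902 to 107198203), which was listed at 0, 0.00319 and 0 FPKM at 0 h and at 0.677, 1.36 and 1.17 at 6 hpi (log2 fold change 3.48, standard error 0.97, adjusted p = 0.337), and at 0.000224, 0 and 0.753 at 12 hpi. TUBA4A-OT3 took the reverse course, at 0.851, 0.397 and 0.271 FPKM against 0, 0.0139 and 0.0163, yet the sum of the 3 transcripts was higher, at 0.851, 0.401 and 0.271 FPKM against 1.12, 1.38 and 1.49 (log2 fold change 1.34, adjusted p = 0.279). ENSBTAG00000020116-AS2, antisense on chromosome 23 (28620078 to 28723399), was at 0.53, 0.52 and 0.96 FPKM against 1.90, 1.32 and 2.30, while the sum of its gene was not called, at 1.38, 0.71 and 2.34 FPKM against 2.15, 2.86 and 3.21 (log2 fold change 0.97, adjusted p = 0.406). The call of ENSBTAG00000020116-AS2 was lost with pseudocounts of 0.5 and 1 and without 0 h replicates 1 and 2 (0.84). Among 1619 genes tested on summed FPKM, 84 were called (5.19%), 52 higher and 32 lower. With each library centred on its median, 46 genes were higher and 44 lower. The 5 with the smallest p in each direction were RNF5, ENSBTAG00000054451 (the gene of ENSBTAT00000080391), XLOC_012827, TMEM168 and the antisense gene of RERE among the higher, and ENSBTAG00000053878, XLOC_010413, ENSBTAG00000051068, XLOC_083329 and XLOC_012963, whose transcripts are given above, among the lower. XLOC_012827, which holds LINC248 (called higher, log2 fold change 1.11, lost under 6 alternatives) and LINC246 (not called), was at 0.574, 0.759 and 0.508 FPKM against 1.79, 1.28 and 1.79 (log2 fold change 1.27, standard error 0.27, adjusted p = 0.251).

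Of the 10 lncRNAs for which the study designed qRT-PCR primers, 3 were called at 6 hpi in these values. Their primer pairs are printed because each belongs to a gene with several overlapping transcripts, in lower case with no base marked, 5′ to 3′.
RUNX1-OT3 forward: ccatagcgtcacaaagagtc
RUNX1-OT3 reverse: ggctgaaagatgtctaaggg
LINC819 forward: tcttcagacttgctgctcg
LINC819 reverse: acctaagtgcgggtgaaa
ENSBTAT00000079931 forward: tcgtggcagggacagaaa
ENSBTAT00000079931 reverse: aagcggcaaggtgttagg

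ENSBTAT00000079931, annotated on chromosome 10 (97156891 to 97169381), was listed at 0 in all 3 libraries of 0 h and at 4.21, 1.41 and 1.78 FPKM at 6 hpi (adjusted p = 0.323 in limma). At 12 hpi it was at 1.75, 0 and 2.83 FPKM. It was the only lncRNA listed at 0 throughout 0 h and above 0.5 FPKM throughout 6 hpi, and LINC178 was the only one with the reverse pattern. Its gene has 5 further transcripts, of which ENSBTAT00000072565, with the same start, was the most abundant at 34.9, 25.5 and 19.8 FPKM against 24.3, 15.2 and 16.2. The sum of the 6 was 50.9, 37.3 and 29.9 FPKM at 0 h and 37.2, 26.3 and 24.1 at 6 hpi (log2 fold change −0.42, adjusted p = 0.616).

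LINC819, intergenic on chromosome 20 (21284208 to 21383060), was at 1.43, 2.46 and 0.105 FPKM at 0 h and listed at 0, 0 and 0.0854 at 6 hpi, and at 0.106, 2.44 and 1.41 at 12 hpi. The groups were separated by the gap between 0.105 and 0.0854 FPKM, and the call (log2 fold change −2.92, standard error 1.12, adjusted p = 0.509) was lost when either or both (−0.74) of 0 h replicates 1 and 2 were left out. It is 1 of 10 transcripts of its gene, whose sum had a log2 fold change of −0.25. The other 7 lncRNAs of the primer set were not called or not tested. Of the whole set, the study took only LINC819 from its comparison of 6 hpi with 0 h, and the rest from its other comparisons. The absence of a call for these 7 is therefore no test of the study's selection. The antisense lncRNA of RRAS2, a Ras-related GTPase (ENSBTAG00000011905-AS1, chromosome 15, 38367178 to 38397239), was among the abundant ones at 43.1, 44.6 and 24.0 FPKM at 0 h and 28.5, 20.7 and 22.3 at 6 hpi. The groups overlapped through 0 h replicate 3, and the log2 fold change, −0.60 (standard error 0.26, adjusted p = 0.509), was −0.02 without 0 h replicates 1 and 2. Its 12 hpi values were 9.48, 10.2 and 12.7 FPKM. LINC145 (chromosome 10) was at 0.921, 0.997 and 0.818 FPKM at 0 h, and at 1.31, 0.00681 and 0.0138 at 6 hpi, so only 6 hpi replicate 1 held it. UBE3D-OT1 and ENSBTAG00000047213-OT3 were under the filter, ENSBTAG00000009752-AS9 was listed at 0 in 5 of the 6 libraries, and ENSBTAG00000054746-AS1 and LINC1054 had log2 fold changes of −1.01 and −0.30 with overlapping groups.

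Of the 8 called lncRNAs with the highest mean FPKM, 6 were higher at 6 hpi and 2 lower. H4C11-OT3 (chromosome 23, 30965738 to 31002944), which overlaps a gene of histone H4, was at 41.8, 38.9 and 106 FPKM at 0 h and at 92.4, 126 and 128 at 6 hpi, and 0 h replicate 3 lay within the 6 hpi range. The log2 fold change, 1.04 (standard error 0.35, adjusted p = 0.474), was 0.11 without 0 h replicates 1 and 2. The sum of the 3 H4C11 lncRNAs had a log2 fold change of 0.91 and was not called. SVBP, a partner of the vasohibins that trim tyrosine from α-tubulin, hosts SVBP-OT1 (chromosome 3, 103432178 to 103439244), at 4.57, 5.50 and 9.25 FPKM against 16, 12.4 and 10.6 (log2 fold change 1.05, standard error 0.28, adjusted p = 0.337). Its call was lost under 8 of 21 alternatives, among them centred and quantile normalized values, without 0 h replicate 1, 0 h replicate 2 or 6 hpi replicate 1, and without 0 h replicates 1 and 2 (0.47), and the sum of the 6 SVBP lncRNAs had a log2 fold change of 0.40. LINC991 (chromosome 25, 2311841 to 2313665) was at 1.75, 2.89 and 5.55 FPKM against 6.51, 10.2 and 10.7 (log2 fold change 1.52), with 0.29 for the sum of its gene, and its call was lost without 0 h replicates 1 and 2 (0.68). LINC668 (chromosome 19, 33209556 to 33211733) was at 1.87, 3.80 and 7.59 FPKM against 6.99, 8.93 and 9.60, with overlapping groups. Its log2 fold change, 1.13, was 0.15 without 0 h replicates 1 and 2. The call was also lost without 0 h replicate 1, 0 h replicate 2, 6 hpi replicate 2 or 6 hpi replicate 3. The sum of the 9 transcripts of its gene had a log2 fold change of 0.59 and was not called. In H4C11-OT3, SVBP-OT1, LINC991 and LINC668, 0 h replicate 3 was the 0 h library nearest to the 6 hpi values. ENSBTAG00000014221-AS1, antisense on chromosome 2 (135877178 to 135878133), was at 1.12, 1.90 and 2.65 FPKM against 4.61, 4.01 and 4.63 (log2 fold change 1.25, adjusted p = 0.339, and 0.71 with the call lost without 0 h replicates 1 and 2). ENSBTAG00000015943-AS1, antisense on chromosome 12 (35458605 to 35464457), was lower, at 4.83, 3.95 and 2.73 FPKM against 1.62, 1.40 and 2.11 (log2 fold change −1.10, adjusted p = 0.337, and −0.67 with the call lost without 0 h replicates 1 and 2). Leaving out 0 h replicate 1 removed the calls of both, and leaving out 6 hpi replicate 2 that of the latter. The sum of the gene of ENSBTAG00000015943-AS1 had a log2 fold change of −0.93 and was not called.

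LncRNAs at genes of inflammatory signalling were few and, like tested lncRNAs as a whole (6.06% called), mostly not called. A lncRNA was counted to a gene list when its host gene, or one lying up to 100 kb from that host, was on it, which could be asked for 620 tested lncRNAs with a host symbol (18 higher, 14 lower). Of 9 lncRNAs of the TLR4 and NF-κB list, 0 were called (median log2 fold change −0.20). IRAK3-OT1, at the gene of a kinase-like inhibitor of TLR signalling, was named after its values were seen and had a log2 fold change of −1.06 without passing. The list ran from −1.38 (ENSBTAG00000009554-AS1) to 1.48 (EHBP1L1-OT1), both near RELA and not called. Of 6 lncRNAs of the PI3K and mTOR list, 0 were called (median −0.29). Of 13 of the list of cytokines, chemokines and complement, 2 were lower (TYK2-OT1 near ICAM1 and KHSRP-OT1 near TNFSF9) and 0 higher (median −0.28). Of 15 of the interferon and antiviral list, 1 was lower (TYK2-OT1) and 0 higher (median 0.17). Of 15 of the Notch, Wnt and TGFβ list, 1 was higher (RNF5-OT3 near NOTCH4) and 0 lower (median −0.03). The 2 of the list of MHC and antigen presentation were not called.

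On the remaining lists most lncRNAs were not called either. Among 39 lncRNAs of cytoskeleton and small GTPase genes (median 0.10), TUBA4A-OT1, ARHGEF10-OT1 and GBA2-OT5, near the talin gene TLN1, were higher and STRIP2-OT1 was lower. ARHGEF10-OT1 (chromosome 27, 1347269 to 1360400), at the gene of a guanine nucleotide exchange factor, was at 0.112, 0.272 and 0.0338 FPKM against 0.382, 0.991 and 0.54 (log2 fold change 1.66, adjusted p = 0.509), and GBA2-OT5 (chromosome 8, 59917270 to 59922273) at 0.341, 0.0491 and 0.496 against 0.702, 1.12 and 1.11 (log2 fold change 1.64, adjusted p = 0.432). Both calls were lost with pseudocounts of 0.5 and 1. ARHGEF10-OT1 also lost its call without 0 h replicate 3 or 6 hpi replicate 2, and GBA2-OT5 without 0 h replicates 1 and 2 (0.83). GBA2-OT4, with the same coordinates as GBA2-OT5, and GBA2-OT2 leaned lower (−1.18 and −1.41, not called). The sum of the 4 GBA2 lncRNAs had a log2 fold change of 0.07 and was not called. Of 28 lncRNAs of ubiquitin ligase genes 1 was higher (RNF5-OT3, median 0.19), and of 25 of RNA processing genes 1 was lower (KHSRP-OT1, median −0.11). Called were 0 of 12 of cell cycle and p53 genes (median −0.25), 0 of 12 of histone and chromatin genes (median −0.25), 0 of 12 near leukocyte markers (median 0.25) and 0 of 2 near fibroblast markers. Among 12 of mammary epithelial markers the 2 called were the RUNX1 lncRNAs (median 0.19). These shares lay on both sides of the 6.06% called among all tested lncRNAs.

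Outside the naming rule and chosen after the values were seen, a few hosts act in defence or signalling. CALCOCO2 is an autophagy receptor that brings bacteria to autophagosomes in human cells, and CALCOCO2-OT1 (chromosome 19, 37692852 to 37702127) was at 2.78, 3.28 and 1.09 FPKM at 0 h, at 0.68, 0.768 and 0.354 at 6 hpi and at 0.332, 0.848 and 0.566 at 12 hpi (log2 fold change at 6 hpi −1.75, standard error 0.48, adjusted p = 0.337). The antisense lncRNA of TGFBR3, a coreceptor of TGFβ (ENSBTAG00000024269-AS1, chromosome 3), was at 1.03, 1.26 and 0.834 FPKM against 0.392, 0.235 and 0.434, with no overlap. CYTH1-OT1 (chromosome 19, 53565765 to 53578895), at the gene of an exchange factor of ARF GTPases, was at 0, 0.402 and 0.116 FPKM against 1.13, 0.496 and 1.21. NOX4-OT1 (chromosome 29, 6120515 to 6149671), at the gene of an NADPH oxidase, was at 0.654, 0.272 and 0.23 FPKM against 2.22, 0.575 and 0.925, with overlapping groups. Without 0 h replicates 1 and 2 the calls of CALCOCO2-OT1 (−0.82), ENSBTAG00000024269-AS1 (−1.07) and NOX4-OT1 (1.82) were lost, and the last 2 were lost under 8 and 10 alternatives, most single libraries of 0 h or 6 hpi left out among them.

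Called lncRNAs that lay within 100 kb of each other formed 8 pairs (members named here after their values were seen), of which 3 had the same direction and 5 the opposite one. Of the latter, 4 are the transcript pairs of 1 gene described above. The remaining 1 is LINC645 (higher, above 0.5 FPKM at 6 hpi alone) and SEC14L1-OT1 (lower), 56258 bases apart on chromosome 19. The 3 pairs with the same direction belong to different genes, and all were higher. LINC1532 and LINC1566 overlap on chromosome 9, and were at 0.00377, 0.00721 and 0.561 FPKM (LINC1532) and at 0, 0 and 0.339 FPKM (LINC1566) at 0 h. At 6 hpi they were at 0.977, 0.627 and 0.839 FPKM and at 0.663, 0.782 and 0.98 FPKM. Of the 0 h libraries, replicate 3 had by far the highest value of each. ENSBTAT00000075394, 52586 bases from ARHGEF10-OT1, was listed at 0 in all 0 h libraries and at 0.108, 0.278 and 0.722 FPKM at 6 hpi, and at 0.542 to 0.767 FPKM at 12 hpi. LINC629 overlaps LINC668 and was at 0.404, 0.723 and 0.38 FPKM against 2.56, 0.573 and 2.41. Without 0 h replicates 1 and 2 the calls of LINC645, SEC14L1-OT1, LINC1532, LINC1566, ENSBTAT00000075394 and LINC629 were all lost.

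Few calls held under all 21 alternative ways of analysis that were run. Kept under every one were 6 of the 118, namely LINC177, ENSBTAG00000048455-OT1 and ENSBTAT00000079931 among the higher and LINC178, ENSBTAT00000083638 and ENSBTAG00000006948-AS1 among the lower. TUBA4A-OT1 was called in the 20 in which it was tested. Of these, LINC177, LINC178, ENSBTAG00000048455-OT1 and ENSBTAT00000079931 belong to genes whose sums had log2 fold changes between −0.42 and −0.12 and were not called. Without 0 h replicates 1 and 2, 59 lncRNAs were called and 27 of the 118 were among them. A pseudocount of 1 left 18 calls, 17 of them shared. Without 0 h replicate 3, 178 were called, 88 of them shared, and 11 passed the adjusted p.

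**Figure D4:**
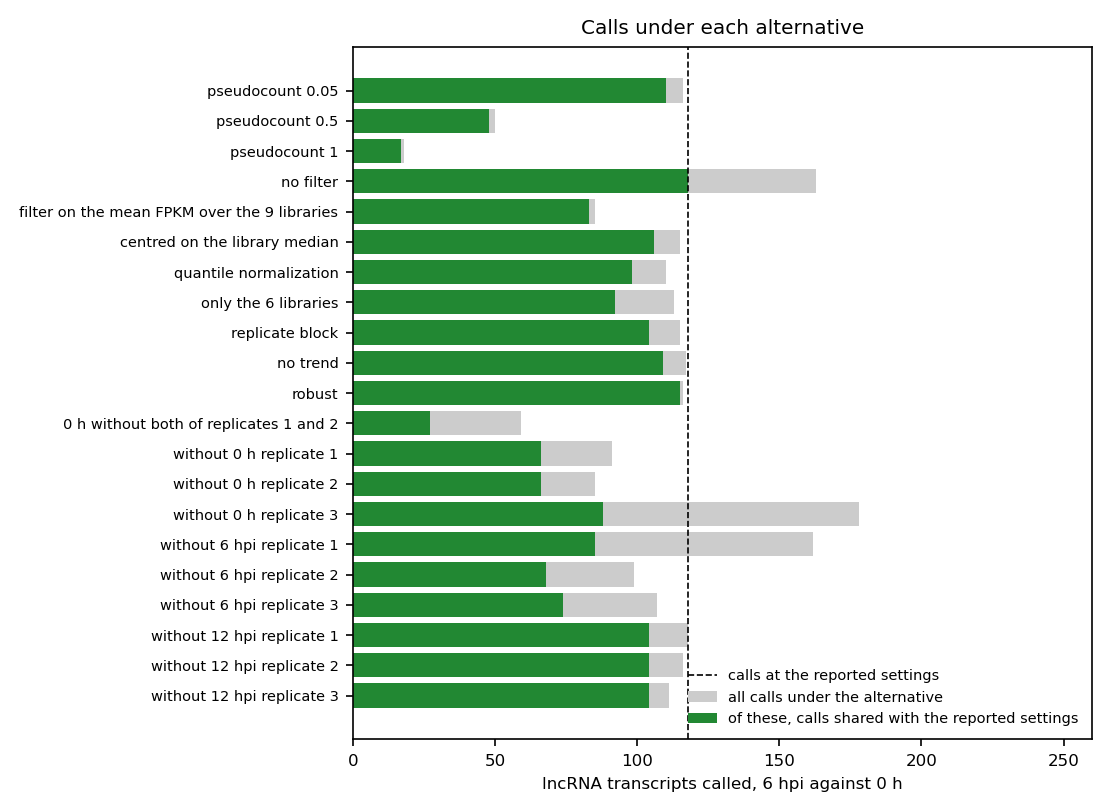
Number of lncRNA transcripts called between 6 hpi and 0 h under each alternative (grey bars) and how many of them are among the 118 of the reported settings (green bars, dashed line at 118). The pseudocount of 1 leaves 18 calls and leaving out 0 h replicates 1 and 2 leaves 59.

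The number of lncRNAs listed above 0 was 2068, 2052 and 2140 in the 0 h libraries and 2070, 2058 and 2078 at 6 hpi, a difference of −18 in the means (exact permutation test, two-sided, p = 0.9). The number above 0.5 FPKM was 1399, 1432 and 1396 against 1524, 1420 and 1452, with overlapping ranges (exact permutation p = 0.2). With 3 libraries against 3 the smallest p this test allows is 0.1. The fragments behind an FPKM are not given, so no counting interval or limit of detection can be attached to these values. In the study's sequencing summary every 6 hpi library had fewer mapped reads than every 0 h library. Depth and time point therefore cannot be told apart in these counts or in lncRNAs listed at 0 at 6 hpi.

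The number of circRNAs listed ordered the 6 libraries as their reads did. They numbered 641, 508 and 2020 at 0 h and 1100, 1312 and 1371 at 6 hpi, a mean of 1056 ± 837 (SD, n = 3) against 1261 ± 143 (exact permutation test, p = 0.8). The values of a library are whole multiples of the value of 1 read, within 0.05 of a read for 100% of values above 0, and nothing under 2 reads is listed. With every library reduced to the 2305 reads of the shallowest, 626, 508 and 1121 circRNAs were expected at 0 h. At 6 hpi 890, 956 and 974 were expected, a difference of 188 in the means (exact permutation p = 0.4). Those with at least 2 reads, a count added after the data were seen, were 529, 508 and 484 at 0 h. At 6 hpi they were 532, 512 and 511 (exact permutation p = 0.4). The groups overlapped, and no difference in the number of circRNAs was detectable at this depth. The 2 reads needed for a listing correspond to 637, 857 and 129 TPM in the 0 h libraries and to 323, 244 and 226 TPM at 6 hpi, so a circRNA listed at 0 could have had up to about that level.

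**Figure D5:**
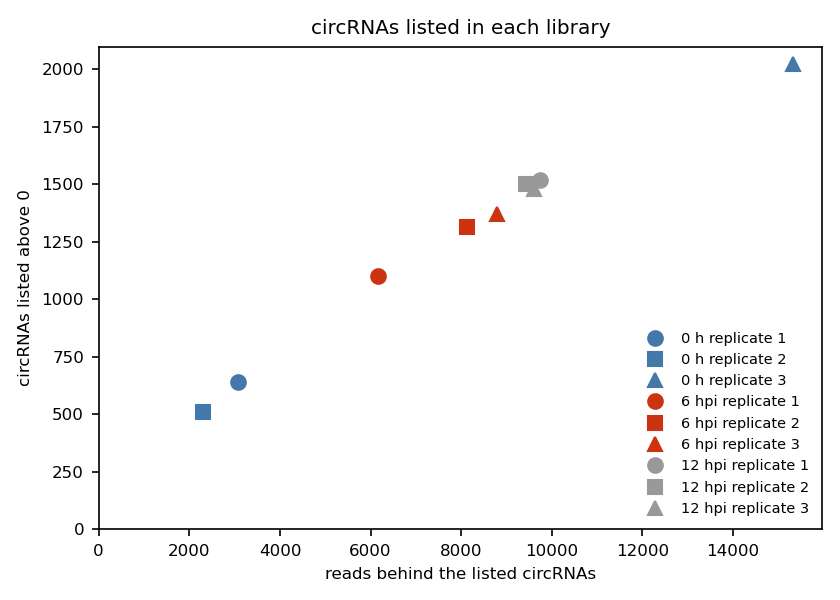
CircRNAs listed above 0 (vertical axis) against the reads behind all listed circRNAs (horizontal axis) in the 9 libraries. The 3 libraries of 6 hpi (red, 1100 to 1371 circRNAs) lie between 0 h replicates 1 and 2 (641 and 508) and 0 h replicate 3 (2020), in the order of their reads.

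None of the 5 most abundant circRNAs was called. The values used here carry no host gene or position for circRNAs, so these are named by number only. Novel_circ_0000148 was at 23248, 15853 and 16046 TPM at 0 h and 15002, 17204 and 18504 at 6 hpi, and novel_circ_0000898 at 15287, 16281 and 10417 against 13712, 12445 and 12750, with log2 fold changes of −0.10 and −0.08. Novel_circ_0002074 was at 5414, 8997 and 8993 TPM against 13067, 10005 and 11170, with no overlap, but its log2 fold change, 0.57 (standard error 0.17, adjusted p = 0.211), did not reach the threshold. Novel_circ_0003598 was at 12102, 12425 and 6146 TPM against 5969, 5612 and 7221 (log2 fold change −0.63), and novel_circ_0003363 at 6688, 3856 and 7635 against 7259, 9883 and 7785 (0.49), both with overlapping groups.

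The circRNA test took in the 1586 that at least 3 of the 9 libraries listed above 0, and 101 were called at the same thresholds on log2(TPM + 129.4) (6.37%), 69 higher and 32 lower, and the median log2 fold change over all of them was 0.28. Every one of the 69 called higher was listed at 0 in 0 h replicate 1, 0 h replicate 2 or both (51 in both), the 2 libraries with the fewest reads. These libraries list 641 and 508 circRNAs in all, so most of the 1586 tested were at 0 in at least 1 of them too. Of the 32 called lower, 27 were listed at 0 in at least 1 library of 6 hpi, a pattern whose share over all tested circRNAs was not counted. Among the 175 circRNAs listed in all 6 libraries, 0 were called higher and 5 lower. Being listed in all 6 took at least 637 and 857 TPM in 0 h replicates 1 and 2, but 226 to 323 TPM at 6 hpi. The direction of these calls and the depth of the libraries cannot be told apart. With 0 h replicates 1 and 2 left out, 18 circRNAs were called and 10 of the 101 were among them. No circRNA kept its call under all 16 alternatives (0 of 101).

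One circRNA of 1586 passed the adjusted p (0.0631%), while 108 had an unadjusted p under 0.05 in limma. Novel_circ_0000221 was at 3503, 0 and 5370 TPM at 0 h and at 6453, 7565 and 7560 at 6 hpi (log2 fold change 2.41, standard error 0.49, adjusted p = 0.00486), with 6323, 6636 and 4042 TPM at 12 hpi. Its log2 fold change was 0.71 and its call was lost without 0 h replicate 2, where it was listed at 0 although 1 read there is worth 428 TPM. Novel_circ_0002071 (637, 0 and 1229 against 2258, 2562 and 2821 TPM) and novel_circ_0000625 (1592, 0 and 2135 against 3710, 2196 and 3949 TPM) had the same shape, and novel_circ_0001419 and novel_circ_0000701 were listed in 0 h replicate 3 alone among the 0 h libraries. The calls of these 4 were lost without 0 h replicates 1 and 2.

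The 5 circRNAs with the smallest p among those called lower without overlap follow. Lack of overlap in this direction requires a value above 0 in all 3 libraries of 0 h, so their listing there is given by the selection. Novel_circ_0003676 was at 2866, 2571 and 906 TPM at 0 h and listed at 0, 0 and 338 at 6 hpi (log2 fold change −3.35, standard error 0.91, adjusted p = 0.181), and novel_circ_0004432 was at 4140, 3428 and 1165 TPM against 0, 244 and 1015 (log2 fold change −2.82). Novel_circ_0001959 was at 1274, 2999 and 712 TPM against 0, 0 and 451. Novel_circ_0005301 (2229, 857 and 453 TPM) and novel_circ_0004684 (637, 857 and 518 TPM) were listed at 0 in all 3 libraries of 6 hpi, and the latter in all 3 of 12 hpi as well. In each of these the value in 0 h replicate 3, the deepest library, was the lowest of 0 h, and without 0 h replicates 1 and 2 the first 3 were no longer called.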

How the data were processed

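LncRNA and circRNA levels were measured by RNA-seq of rRNA-depleted, stranded libraries from MAC-T cells. Per the labels' processing notes, reads were mapped to ARS-UCD1.2 with HISAT2, and Cuffdiff 2.1.1 and DESeq 1.10.1 were among the tools. The FPKM values of lncRNA transcripts were deposited by the authors after Cuffmerge assembly, coding-potential filters and quantification with StringTie. Every deposited lncRNA has a mean of at least 0.5 FPKM at one time point or more (lowest 0.5), so the set is not blind to the groups. The circRNA TPM values were deposited by the authors per library. The sources used here name no circRNA caller.

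FPKM of all 9 libraries were taken from the one table that holds them. They were transformed to log2(FPKM + 0.1), with FPKM over 0.5 in at least 3 libraries, and tested with limma 3.58.1 (trend, 1 fit over the 9 libraries) in R 4.3.3. The same was done for FPKM summed per gene, and for log2(TPM + 129.4), the smallest value above 0, of circRNAs above 0 in at least 3 libraries. Called means a log2 fold change beyond 1 in either direction with p under 0.05 before adjustment. The code was checked on simulated data.

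Named were lncRNAs called without overlap (10 in each direction by p), the 8 most abundant called, those at 0 throughout one time point and above 0.5 FPKM throughout the other, genes with opposite calls, called lncRNAs at listed genes, those with qRT-PCR primers, 5 genes in each direction, and the 5 most abundant and up to 5 called circRNAs in each direction. These members and lists were chosen with earlier results of these data known. Of 486 host symbols, 484 were found in RefSeq's ARS-UCD2.0 table, which was used for neighbours only. Primer sequences are from the study's primer table. Alternatives were other pseudocounts, filters, scalings, sets of libraries, a replicate block and limma settings. One lncRNA at a listed gene, with the list it belongs to, is not reported here. The study's sequencing summary gives mapped reads per library, but the fragments behind each lncRNA value are not given. The number of libraries limits the precision.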

Additional observations from a re-analysis of the deposited data

How the results depend on the processing

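Under the alternatives run, the fold changes of the called lncRNAs, genes and circRNAs that the naming rule gave kept their direction (0 of 1099 values turned), and 136 values lost the call. Of 183 values of those not called, 7 turned: LINC1054 (up to 0.51), novel_circ_0000148 (up to 0.08), novel_circ_0000898 (up to 0.31) and novel_circ_0003598 (0.02), all with 0 h replicate 1, 2 or both left out. Of 118 lncRNAs called (73 higher, 45 lower), a pseudocount of 0.5 left 50 (33 and 17), a pseudocount of 1 left 18 (11 and 7), no filter gave 70 lower, and without 0 h replicates 1 and 2 there were 59 (43 and 16). The adjusted p was passed by 2 with only the 6 libraries and by 2 without a trend. With each library left out in turn, 85 to 178 lncRNAs were called (52 to 121 higher, 29 to 88 lower) and 0 to 11 passed the adjusted p. Of 84 genes, a pseudocount of 1 left 8 (4 and 4), no filter gave 55 lower, without 0 h replicates 1 and 2 there were 49 (14 lower, 2 by adjusted p), with only the 6 libraries 0 passed the adjusted p, and leaving out libraries gave 62 to 140 (40 to 89 higher, 18 to 71 lower, 0 to 12 by adjusted p).

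Of 101 circRNAs (69 higher, 32 lower), 45 were called with only the 6 libraries (27 and 18, 0 by adjusted p), a pseudocount 4 times as large gave 43 higher and 4 by adjusted p, and a filter on at least 6 libraries left 0 by adjusted p. Leaving out libraries gave 75 to 198 (49 to 142 higher, 22 to 56 lower, 0 to 9 by adjusted p). Chosen after seeing the data were circRNAs without 0 h replicates 1 and 2, with 18 calls (9 and 9, 0 by adjusted p), a pseudocount of 2 reads of the shallowest library, with 20 (7 and 13, 4 by adjusted p), and the count of circRNAs with at least 2 reads at that depth, whose difference was 11.5. The edgeR test planned on recovered circRNA reads was not run. The mean number of lncRNAs above 0 differed by −18 (−35.3 to 8.67 with a library left out) and of those above 0.5 FPKM by 56.3, and that of circRNAs by 205 (−69.5 to 687), so both differences changed sign with a library left out. With the replicate number as a block, 115 lncRNAs, 86 genes and 96 circRNAs were called, and 0 genes and 0 circRNAs passed the adjusted p. Deviations of same-numbered libraries of 0 h and 6 hpi from their group means had correlations of −0.03, −0.04 and 0.07 over the tested lncRNAs. Most of these lncRNAs are scarce, so such values cannot exclude a pairing or a shared batch. The causes of these shifts were not tested.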
